A study of Mus musculus with 20 samples.

Results

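The ionotropic glutamate receptors other than the AMPA type comprise the NMDA, kainate and delta receptors, and 9 of their genes were followed here through the cochlea of Bai1-deficient mice. The genes were taken by symbol, by a rule that uses no measured value, and all 9 were found among the 24411 genes of the tables: Grin1, Grin2c, Grin2d and Grin3a for NMDA subunits, Grik2, Grik3, Grik4 and Grik5 for kainate subunits, and Grid1 for a delta receptor. RNA-seq was performed on poly A libraries of mouse cochlea at postnatal day (P) 7 and P22. Each library was a pool of the sensory epithelium and spiral ganglion neurons (SGNs) from the apical coil of 4 mice of either sex on the C57BL/6N background (another passage of the sources gives 3 to 4 mice). Bai1tm2b/+ mice (labelled Het) carried 1 allele without exons 3 and 4 of Adgrb1, the gene of BAI1, with a lacZ reporter in their place, and littermate Bai1tm2b/tm2b mice (labelled Homo) carried 2 such alleles, so that every group carried the tm2b allele and no wild type group was measured. The deletion is constitutive, and Adgrb1 also has short transcripts that start behind these exons, which the values per gene do not separate.

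NMDA receptors are tetramers of GluN1, which binds glycine or D-serine and is required in each receptor, with GluN2 subunits, which bind glutamate and set how strongly magnesium blocks the channel and how fast it closes. GluN3 subunits bind glycine and lower the passage of calcium. Kainate receptors are built from GluK1, GluK2 and GluK3, which can form channels alone, and from the high-affinity subunits GluK4 and GluK5, which need a partner from the first kind. GluD1, the delta receptor encoded by Grid1, binds secreted cerebellins and through them presynaptic neurexins. In the adult cochlea the fast response of SGNs to the inner hair cells is carried by AMPA receptors, and SGNs also express NMDA receptors. Pools of mixed tissue do not show which cells hold the transcripts of the genes described here.

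The sequences before the starts of Grin1 and Grin2c are shown because these NMDA genes had the largest differences between the ages. Of the 9 genes, 7 had an entry in the RefSeq promoter table (GRCm38.p6), and Grin3a and Grid1 did not. Each line gives the 250 bases before the RefSeq start, 5' to 3' on the strand of the gene. Capitals mark GC boxes (GGGCGG, or CCGCCC on the other strand) and E-boxes (CACGTG, which reads alike on both strands), motifs that were picked after the sequences had been read. Neither window touches an exon of the GENCODE vM21 annotation.
Grin1, chr2:25319188-25319437, minus strand: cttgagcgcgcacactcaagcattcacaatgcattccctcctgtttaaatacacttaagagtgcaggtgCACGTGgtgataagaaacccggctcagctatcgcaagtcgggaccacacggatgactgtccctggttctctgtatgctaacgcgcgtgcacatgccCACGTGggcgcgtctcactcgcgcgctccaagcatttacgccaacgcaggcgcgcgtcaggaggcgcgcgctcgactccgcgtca
Grin2c, chr11:115267244-115267493, minus strand: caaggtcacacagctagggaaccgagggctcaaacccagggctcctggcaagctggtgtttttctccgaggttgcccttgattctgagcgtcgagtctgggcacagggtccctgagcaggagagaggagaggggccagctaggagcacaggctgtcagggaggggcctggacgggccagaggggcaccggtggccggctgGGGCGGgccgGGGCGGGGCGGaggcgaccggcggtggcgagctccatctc
The Grin1 window held E-boxes at 2 places and no GC box, and the Grin2c window held 3 GC boxes, the last 2 of which share bases, and no E-box. Among the other windows, GC boxes were found at 6 places for Grik3, 2 for Grik5 and 1 for Grik4, and none for Grin2d or Grik2, and no further window held an E-box. Of 32851 promoter windows of the same length, 32.7% held a GC box and 6.02% an E-box. G and C made up 58.8% of the Grin1 window and 68.8% of the Grin2c window, against a median of 52.4% over all windows. The windows of Grin2d, Grik2, Grik4 and Grik5 are not printed because they overlap annotated exons.

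The P22 table and replicates 5 to 7 of each genotype at P7 hold estimated counts (3 libraries per genotype and age), with library totals between 31108551 and 58807173. Replicates 1 to 4 of each genotype at P7 hold whole numbers that sum to between 999644 and 999777, as TPM values, in which the transcripts of each sample are scaled to 1 common sum, would after rounding, so the number of reads behind them is unknown. Counts are given as CPM, in which TMM brings the 12 libraries to 1 common size. Adgrb1, the targeted gene, stood at 152 to 167 CPM in Bai1tm2b/+ and 100 to 105 CPM in Bai1tm2b/tm2b libraries at P22, at 32.1 to 56.4 and 21.6 to 31.2 CPM in the P7 libraries in counts, and at 7 to 12 and 9 to 12 in those in rounded TPM, where the genotypes overlapped. Markers of neurons (12 of 12), hair cells (10 of 10) and Schwann cells and satellite glia (9 of 9) were detected in each set. The 12 neuron markers summed to 1215 to 3038 CPM in the P7 libraries in counts and to 11384 to 17278 CPM at P22, and their sum moved with several results below. In such bulk samples, fewer cells of a type and less RNA per cell cannot be told apart.

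To see which receptor genes dominate at each age, levels were compared per length, as CPM per kilobase of the joined exons of each gene. At P7 in counts, Grik5 was the most abundant at 19.2 ± 1.04 (SD, n = 6 libraries), above Grin1 at 3.53 ± 1.31 in every library. Grid1 (2.16), Grin2d (2.01), Grik3 (1.74), Grik4 (1.41) and Grin3a (1.36) followed, and from Grin1 to Grin3a each gene's range over the libraries overlapped that of the next. Grik2 (0.403 ± 0.0722) and Grin2c (0.247 ± 0.0255) were the lowest, and their ranges touched neither each other nor those above. In the P7 libraries in rounded TPM, where values of different genes are already per length, Grik5 (22 to 36, mean 28.6) and Grin1 (14 to 34, mean 22.9) were also the highest and Grin2c (0 or 1) the lowest. The ranges of Grik5 and Grin1 overlapped there, unlike in counts. In Bai1tm2b/tm2b replicate 3 Grin1 (34) stood above Grik5 (31). Grin1 did not overlap the next gene in rounded TPM. With the longest coding transcript as the length, it did not overlap the next gene in counts either (Grin1 8.01 ± 2.98, Grin2d 2.47 ± 0.345). Grik5 (26.4 ± 1.43) stayed apart from Grin1 in counts on that length too. The distance of Grin1 from Grik5 thus differed between these sets of P7 libraries, while its distance from the genes below depended on the length chosen.

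At P22 the order was different at the top from that of the P7 libraries in counts. Grin1 led at 38.5 ± 3.88 CPM per kilobase (SD, n = 6), followed by Grik5 at 18.3 ± 0.329 and Grik4 at 4.82 ± 0.606, and none of these ranges overlapped. Grin2c, the lowest gene at P7, came next at 2.34 ± 0.147, with Grik3 (2.01) and Grin2d (1.65) behind it in overlapping ranges. Grid1 (0.799), Grin3a (0.456) and Grik2 (0.260) closed the order without overlap. Of the summed level of the 9 genes per length, Grin1 made up 12.03% ± 4.66 in Bai1tm2b/+ libraries at P7 and 56.9% ± 1.36 at P22 (SD, n = 3 each), and Grik5 made up 59.0% ± 5.56 and 25.3% ± 1.48. With the longest coding transcript as the length, the Grin1 shares were 19.1% and 70.5%. All P7 shares are those of the libraries in counts. The libraries in rounded TPM, where Grin1 and Grik5 lay closer together, were not used for them.

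**Figure D1:**
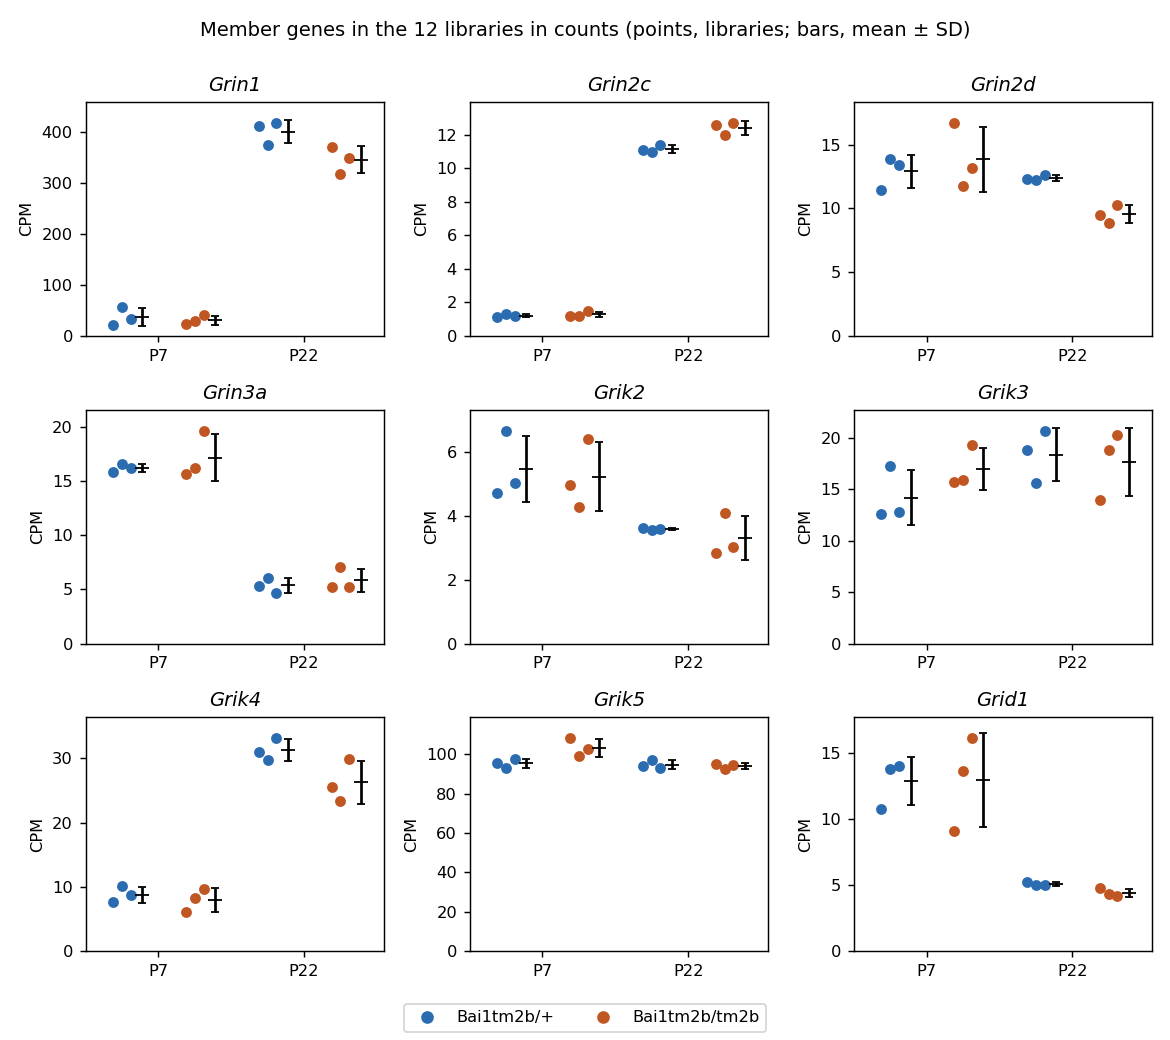
CPM (vertical axes, starting at 0, a scale of its own for each gene) of the 9 receptor genes in the 12 libraries in counts, with P7 replicates 5 to 7 on the left and P22 on the right of each panel. Points are libraries and the bars beside them are the mean and SD of 3 libraries. Grin1, Grin2c and Grik4 were higher at P22 in every library, Grin3a, Grik2 and Grid1 were lower in every library, and Grik5 lay between 92.4 and 108 CPM throughout.

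Levels at P22 were then compared with those at P7 over the 12 libraries in counts. Of the 9 genes, 3 rose, with Grin1 10.9-fold, Grin2c 9.41-fold and Grik4 3.40-fold higher at P22, and Grin3a, Grid1 and Grik2 fell. Calls needed an adjusted p below 0.05, a change of more than 0.5 on the log2 scale and a standard error (SE) below 0.5, which are the thresholds of the study. By this rule 6 of the 9 genes were called, 3 higher and 3 lower, while 54.6% of the 16314 genes tested were called (25.9% higher and 28.7% lower). The same 6 genes had no overlap between the ages, against 62.6% of all genes. The 9 had a median of -0.07 on the log2 scale and all genes tested had -0.05. Age and deposited table coincide, and the P22 libraries are a batch of their own by the methods, so age and batch cannot be told apart. All 6 calls were also made in each of the 12 fits that left out a library. They were made as well in the contrasts within each genotype, which were taken from the same fit of all 12 libraries.

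Among the NMDA genes, Grin1, whose product GluN1 is part of each NMDA receptor, stood at 22.1, 56.1 and 34.1 CPM in the Bai1tm2b/+ and 23.0, 29.9 and 40.5 CPM in the Bai1tm2b/tm2b libraries at P7. At P22 it stood at 411, 374 and 417 CPM in Bai1tm2b/+ and 371, 317 and 348 CPM in Bai1tm2b/tm2b. Every P22 library was far above every P7 library, and the P7 library with the highest Grin1, Bai1tm2b/+ replicate 6, also had the highest sum of neuron markers. The log2 fold change was 3.44 (SE 0.21, adjusted p = 6.49e-09, edgeR quasi-likelihood test). Grin2c, which encodes GluN2C, a GluN2 subunit with weak magnesium block best known from cerebellar granule cells, stood at only 1.13, 1.29 and 1.18 CPM in Bai1tm2b/+ and 1.18, 1.20 and 1.48 CPM in Bai1tm2b/tm2b libraries at P7, which is 41 to 81 counts. It stood at 11.1, 10.97 and 11.4 CPM in Bai1tm2b/+ and 12.6, 11.97 and 12.7 CPM in Bai1tm2b/tm2b libraries at P22. The ages did not overlap and the libraries of an age lay close together. The log2 fold change was 3.23 (SE 0.09, adjusted p = 2.28e-11, edgeR).

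Grin2d encodes GluN2D, a slowly closing GluN2 subunit typical of early life in much of the nervous system. It stood at 11.5, 13.9 and 13.4 CPM in Bai1tm2b/+ and 16.7, 11.7 and 13.2 CPM in Bai1tm2b/tm2b libraries at P7, and at 12.3, 12.2 and 12.6 CPM and 9.49, 8.86 and 10.3 CPM at P22. The P22 Bai1tm2b/+ libraries lay inside the range of P7, and the P22 Bai1tm2b/tm2b libraries lay below it. The log2 fold change over both genotypes was -0.30 (SE 0.09, adjusted p = 0.00842, edgeR), which is under the size limit. In the contrast within Bai1tm2b/tm2b, from the same fit, it was -0.54 (adjusted p = 0.00233, edgeR) and past that limit. Grin3a encodes GluN3A, a subunit of juvenile NMDA receptors. It fell from 15.9, 16.5 and 16.2 CPM in Bai1tm2b/+ and 15.7, 16.2 and 19.6 CPM in Bai1tm2b/tm2b libraries at P7 to 5.34, 6.10 and 4.69 CPM and 5.23, 7.03 and 5.22 CPM at P22. No P22 library reached the lowest P7 library, and the log2 fold change was -1.57 (SE 0.10, adjusted p = 1.32e-08, edgeR).

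Among the kainate genes, Grik4, for the high-affinity subunit GluK4, stood at 7.61, 10.1 and 8.68 CPM in Bai1tm2b/+ and 6.03, 8.31 and 9.70 CPM in Bai1tm2b/tm2b libraries at P7. At P22 it stood at 30.9, 29.7 and 33.1 CPM and at 25.5, 23.3 and 29.8 CPM. The ages were well apart, with a log2 fold change of 1.77 (SE 0.11, adjusted p = 1.34e-08, edgeR). Grik5, for GluK5, the other high-affinity subunit, showed no such difference. It stood at 95.5, 93.0 and 97.6 CPM in Bai1tm2b/+ and 108, 98.9 and 103 CPM in Bai1tm2b/tm2b libraries at P7, and at 94.0, 97.2 and 93.0 CPM and 95.1, 92.4 and 94.7 CPM at P22. Its log2 fold change was -0.07, with a 95% interval from -0.15 to 0.01 (adjusted p = 0.0970, edgeR), the narrowest interval of the 9 genes. Grik2 and Grik3 encode the subunits GluK2 and GluK3 that can form channels alone. Grik2 stood at 4.28 to 6.66 CPM over the 6 libraries at P7 and at 2.82 to 4.09 CPM at P22, without overlap, and its log2 fold change was -0.64 (SE 0.14, adjusted p = 0.00108, edgeR). Grik3 stood at 12.6 to 19.3 CPM at P7 and 13.9 to 20.7 CPM at P22, with a log2 fold change of 0.21 and an interval from -0.05 to 0.47 (adjusted p = 0.116, edgeR).

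Grid1, the delta receptor gene, stood at 10.8, 13.8 and 14.02 CPM in Bai1tm2b/+ and 9.08, 13.6 and 16.1 CPM in Bai1tm2b/tm2b libraries at P7. It stood at 5.28, 4.998 and 4.99 CPM and at 4.77, 4.32 and 4.21 CPM at P22. Each P22 library was below each P7 library, and the log2 fold change was -1.44 (SE 0.13, adjusted p = 3.73e-07, edgeR).

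The neuron markers also differed between the ages. All 12 were called higher at P22, with log2 fold changes from 1.19 to 4.12 and a median of 2.57, and the 9 markers of Schwann cells and satellite glia had a median of 1.04 (7 called higher and 1 lower). The 10 hair cell markers had a median of -0.67, with 1 called higher and 6 lower. The 8 central glia markers had a median of -0.67 (3 called higher and 4 lower), with sums of 425 to 700 CPM at P7 and 434 to 957 CPM at P22. Of the 8 brain neuron markers 6 were tested, with a median of -2.65 and 2 called lower, and their sum was 20.0 to 41.7 CPM at P7 and 3.76 to 7.86 CPM at P22. When the libraries were scaled to the summed neuron markers instead of the whole library, the median over all tested genes moved to -3.08, Grin1 remained higher at P22 (0.52, adjusted p = 0.00359, edgeR) and Grin2c was at 0.24 (adjusted p = 0.353, edgeR) and no longer called. On this scale Grik4 (-1.22) and Grik3 (-2.78) had the opposite direction, and Grin2d (-3.33), Grin3a (-4.58), Grik2 (-3.62), Grik5 (-3.11) and Grid1 (-4.43) were called lower. So were 14928 of the 16314 genes tested, while 119 were called higher. Per 1000 CPM of neuron markers, Grin1 stood at 17.6 ± 2.30 CPM in Bai1tm2b/+ libraries at P7 and 24.9 ± 0.888 CPM at P22, and Grin2c at 0.620 ± 0.176 and 0.694 ± 0.0321 CPM (SD, n = 3 each). Most of the sum at P22 comes from Nefh, Nefm, Snap25 and Nefl, with means of 3987, 3528, 3044 and 2726 CPM in Bai1tm2b/+ libraries. Nefh had a mean of 277 CPM in Bai1tm2b/+ libraries at P7. Results on this scale therefore depend mostly on these genes, and the part of neuron content in the differences was not tested.

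**Figure D2:**
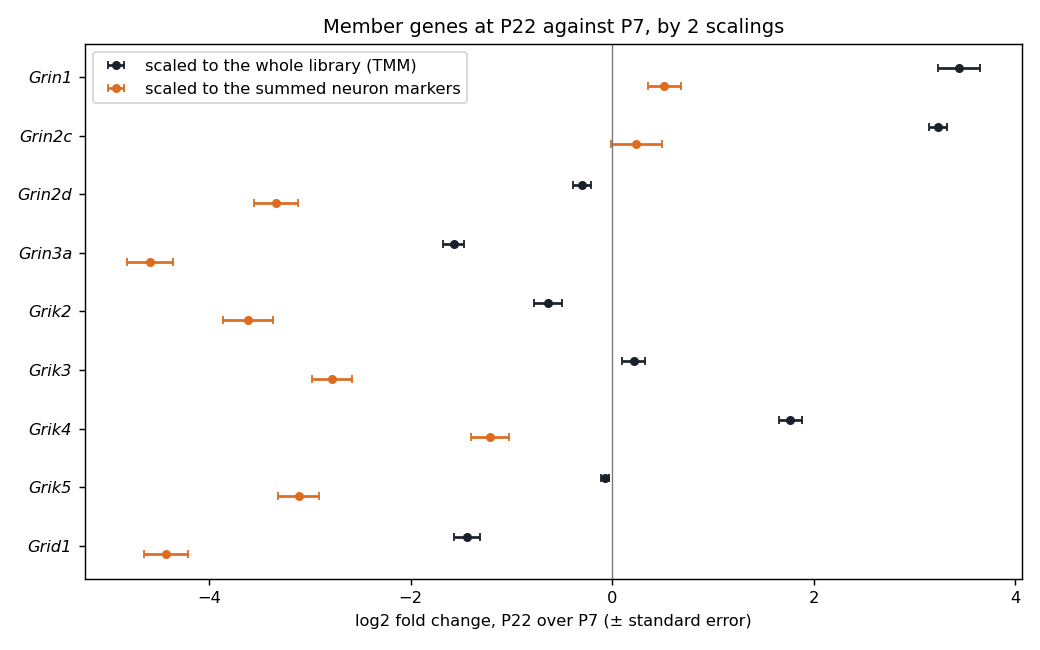
Log2 fold change of each receptor gene at P22 over P7 (horizontal axis, with the standard error) over the 12 libraries in counts. Dark points are scaled to the whole library by TMM and orange points to the sum of the 12 neuron markers. Grin1 lies above 0 on both scales, at 3.44 and 0.52, Grik4 lies at 1.77 and -1.22, and Grin3a, Grik2 and Grid1 lie below 0 on both.

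Shares within a receptor class do not depend on how libraries are scaled, so the makeup of the GluN2 genes was followed per length. These shares were chosen after the values had been seen. At P7, Grin2d made up 87.6% ± 0.515 of the summed GluN2 genes in Bai1tm2b/+ and 86.5% ± 2.53 in Bai1tm2b/tm2b libraries (SD, n = 3 each), and Grin2c made up 10.8% in both. At P22 Grin2c made up 54.2% ± 0.191 in Bai1tm2b/+ and 63.1% ± 1.119 in Bai1tm2b/tm2b libraries, and Grin2d made up 45.5% ± 0.134 and 36.7% ± 1.04. On joined exons, Grin2c was a minor gene of the class at P7 and had the larger share in each library at P22. Grin2a and Grin2b, the GluN2 genes best known from the forebrain, were marginal. Grin2a had 15 to 40 counts in each P7 library, 1.22% and 1.498% of the class in the respective genotypes, and 0 counts in all 6 P22 libraries. A count of 0 allows up to 3 counts per library, so each P22 library was at least 3.92-fold below the lowest P7 library, a bound that covers counting error only. Grin2b stayed at or under 1.14% in the mean of each group. The ratio of Grin1 to the summed GluN2 genes per length was 1.70 ± 0.653 in Bai1tm2b/+ and 1.37 ± 0.480 in Bai1tm2b/tm2b libraries at P7, and 10.1 ± 0.452 and 9.12 ± 0.543 at P22. With the longest coding transcripts these ratios were 3.21 and 2.60 at P7 and 20.5 and 18.8 at P22.

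The Grin2c share was 8.91 percentage points higher in Bai1tm2b/tm2b than in Bai1tm2b/+ libraries at P22, with no overlap between the genotypes. The exact permutation test (2-sided) gave p = 0.1, which is the smallest value that 3 libraries against 3 can give. At P7 the difference was 0.0358 points (exact permutation test, p = 1). With the longest coding transcript in place of the joined exons, Grin2c made up 49.9% and 59.0% at P22 in the respective genotypes, so that in Bai1tm2b/+ libraries it stood level with Grin2d at 49.9%, and the difference was 9.11 points. Within the kainate genes, Grik5 made up 79.7% in both genotypes at P7 and 69.9% ± 1.80 and 72.5% ± 2.12 at P22. Grik4 made up 6.37% ± 0.848 and 5.36% ± 1.21 at P7 and 20.0% ± 0.994 and 17.5% ± 1.66 at P22, and Grik1 made up 5.35% ± 0.532 and 5.83% ± 1.31 at P7 and 1.27% ± 0.254 and 1.23% ± 0.459 at P22. The P7 libraries in rounded TPM were not used for these shares. Their mean was 5.63 for Grik4 and 28.6 for Grik5 (n = 8). Per kilobase, Grik4 and Grik5 had 1.41 and 19.2 at P7 in counts and 4.82 and 18.3 at P22. Grik4 was thus nearer to Grik5 in rounded TPM than in counts at P7. The higher share of Grik4 at P22 rests on the P7 libraries in counts.

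**Figure D3:**
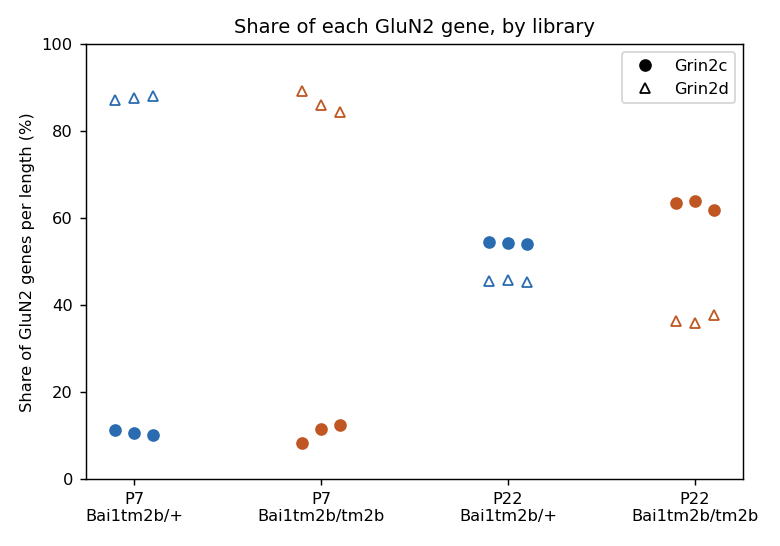
Share of Grin2c (filled circles) and Grin2d (open triangles) in the summed level of the GluN2 genes per kilobase of joined exons, in percent (vertical axis, 0 to 100), for each library in counts by age and genotype. Grin2d exceeds Grin2c in every P7 library and Grin2c exceeds Grin2d in every P22 library, with Grin2c at 54.1 to 54.4% in Bai1tm2b/+ and 61.9 to 64.0% in Bai1tm2b/tm2b libraries.

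To ask whether the loss of full-length BAI1 alters these genes in the adult cochlea, genotypes were compared at P22. None of the 9 genes was called, against 3.15% of the 15443 genes tested. A single gene, Grin2d, passed the adjusted p value alone, in the direction of lower expression in Bai1tm2b/tm2b mice, as did 7.28% of all genes. The genotypes did not overlap for 4 of the 9 genes, lower in Bai1tm2b/tm2b for Grin1, Grin2d and Grid1 and higher for Grin2c, against 33.7% of all genes. The 9 had a median of -0.11 on the log2 scale and all genes had 0.01.

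Grin2d stood at 12.3, 12.2 and 12.6 CPM in Bai1tm2b/+ and 9.49, 8.86 and 10.3 CPM in Bai1tm2b/tm2b libraries, or 334 to 431 counts. Its log2 fold change was -0.37 (SE 0.11, 95% interval from -0.60 to -0.14, adjusted p = 0.0462, edgeR), below the size limit of 0.5. Without any 1 of the 6 libraries the log2 fold change was between -0.43 and -0.31 and the adjusted p between 0.0610 and 0.136 (edgeR). The value was thus close to 0.05 and above it in each of these smaller fits, whichever library was left out. Over all 11 alternatives it ranged from 0.0360 to 0.760. Of the exon bases of Grin2d, 9.66% overlap a gene on the other strand, Gm45441, and the sources used here do not state whether counting used strand.

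Grin1 was lower by 0.21 on the log2 scale in Bai1tm2b/tm2b libraries (interval from -0.36 to -0.05, adjusted p = 0.0821, edgeR), and all 3 stood below the lowest Bai1tm2b/+ library. It was lower in 10 alternatives, with an adjusted p of 0.0253 with DESeq2, 0.0414 without Bai1tm2b/+ replicate 2 and 0.0575 to 0.241 in the other 8, and the size limit was not reached in any. Exons of Grin1 overlap those of the antisense gene Grin1os over 13.5% of their bases, and Grin1os held 0% to 1.119% of the counts of the pair. Grik4 had a log2 fold change of -0.24 (interval from -0.46 to -0.03, adjusted p = 0.123, edgeR), with overlapping genotypes. Grin2c had 0.16 (interval from -0.05 to 0.37, adjusted p = 0.304, edgeR), all 3 Bai1tm2b/tm2b libraries standing above the Bai1tm2b/+ libraries. Grid1, at -0.19 (interval from -0.51 to 0.13), and Grik2, at -0.11 (-0.53 to 0.32), did not pass. Grin3a was at 0.12 (-0.25 to 0.50) and Grik3 at -0.05 (-0.37 to 0.27). Scaled by TMM, Grik5 was the most tightly bounded, at -0.0026 with an interval from -0.12 to 0.12, so a change of the size limit lies outside that interval.

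The markers of other cells moved with genotype at P22. All 12 neuron markers had negative log2 fold changes (-0.10 to -0.53, median -0.27), with Nefh and Syt2 called lower, and their sum was 15189 to 17278 CPM in Bai1tm2b/+ and 11384 to 12914 CPM in Bai1tm2b/tm2b libraries. The 10 hair cell markers were all positive (median 0.51, 3 called higher, sums of 440 to 468 and 558 to 662 CPM), as were the 8 central glia markers (median 0.76, 5 called higher, sums of 434 to 481 and 568 to 957 CPM). Schwann and satellite glia markers summed to 21297 to 22521 and 22271 to 26146 CPM (2 of 9 called higher), and the 8 brain neuron markers summed to 3.76 to 7.86 and 5.89 to 6.31 CPM (none called), with 1 of them at 0 in each Bai1tm2b/+ library. When the libraries were scaled to the neuron markers, the median of all genes moved to 0.43. Of the 15443 genes tested, 4765 were then called higher in Bai1tm2b/tm2b and 33 lower. Of the 9 receptor genes 2 were called higher, Grin2c (0.58, adjusted p = 0.00248, edgeR) and Grin3a (0.54, adjusted p = 0.0369, edgeR). On that scale Grin1 (0.21), Grin2d (0.05), Grik4 (0.17), Grik2 (0.32), Grik3 (0.38), Grik5 (0.41) and Grid1 (0.22) had the opposite direction to that given above. Of these, Grik5 (adjusted p = 0.00222, edgeR), Grin1 (0.0163) and Grik3 (0.0498) passed the adjusted p value but not the size limit. Grin1 per 1000 CPM of neuron markers stood at 24.9 ± 0.888 CPM in Bai1tm2b/+ and 28.7 ± 0.819 CPM in Bai1tm2b/tm2b libraries. Nefh, itself called lower, is the largest part of the marker sum, with means of 3987 CPM in Bai1tm2b/+ and 2759 CPM in Bai1tm2b/tm2b libraries. The shifts on that scale therefore depend in part on Nefh.

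**Figure D4:**
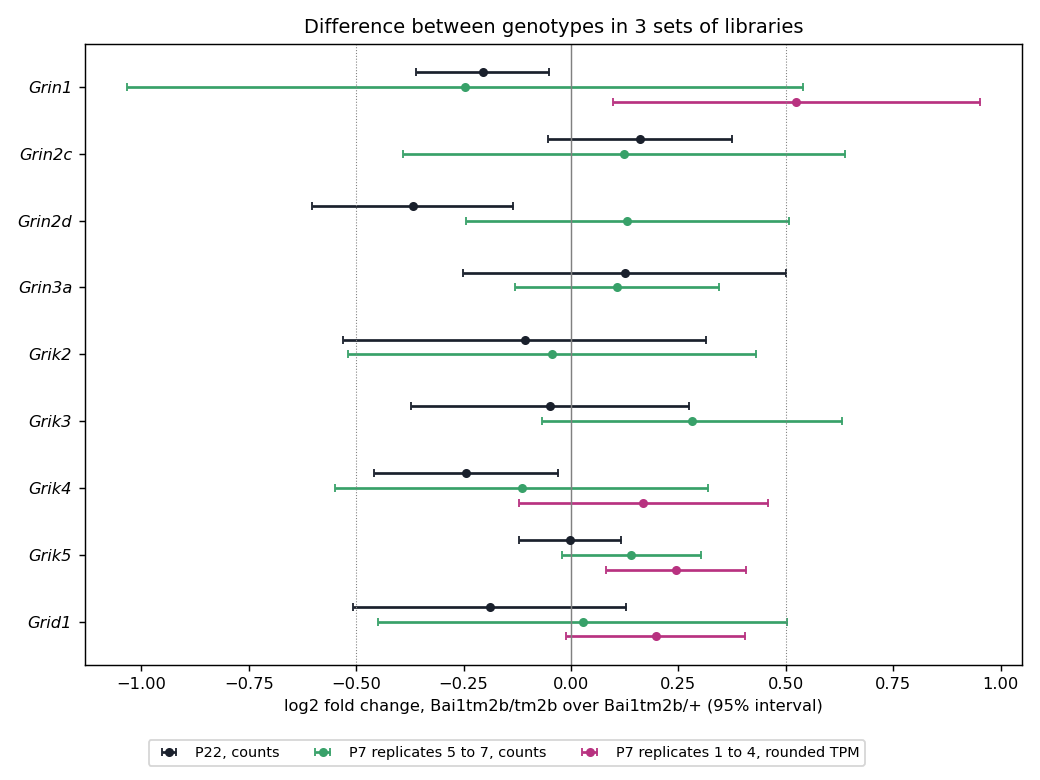
Log2 fold change of Bai1tm2b/tm2b over Bai1tm2b/+ (horizontal axis) with its 95% interval for each receptor gene in 3 sets of libraries. Dotted lines mark the size limit of 0.5 in either direction, and genes below a mean of 5 TPM have no value in rounded TPM. The intervals at P22 are narrower than those at P7 in counts for Grin1, Grin2c, Grin2d, Grik2, Grik3, Grik4, Grik5 and Grid1 but not for Grin3a, and Grin1 lies at -0.21, -0.25 and 0.52 in the respective sets.

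At P7 in counts, where the same question was asked before hearing onset, none of the 9 genes was called, and no gene of the 16026 tested was called (0%), by edgeR. An unadjusted p under 0.05 was reached by 763 genes (4.76%) but by none of the 9, and DESeq2 called 48 genes, none of them among the 9. The genotypes overlapped for all but Grik5, which stood at 93.0 to 97.6 CPM in Bai1tm2b/+ and 98.9 to 108 CPM in Bai1tm2b/tm2b libraries, against 10.7% of all genes without overlap. Its log2 fold change was 0.14 (interval from -0.02 to 0.30, adjusted p = 0.894, edgeR). Grin1 was at -0.25 with an interval from -1.03 to 0.54, and without Bai1tm2b/+ replicate 6 it was at 0.17. The other genes lay between -0.12 (Grik4) and 0.28 (Grik3), and the median of the 9 was 0.11. Neuron markers summed to 1474 to 3038 CPM in Bai1tm2b/+ and 1215 to 1879 CPM in Bai1tm2b/tm2b libraries.

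In the P7 libraries in rounded TPM, 4 of the 9 genes reached the mean of 5 TPM needed for a test, and none was called, against 0.761% of the 11688 genes tested (limma). Grin1 stood at 19, 22, 15 and 14 in Bai1tm2b/+ and at 17, 31, 34 and 31 in Bai1tm2b/tm2b libraries. Of the Bai1tm2b/tm2b libraries, 3 were above all Bai1tm2b/+ libraries and replicate 1 was among them. The log2 fold change, on the scale of log2(TPM + 1), was 0.52 (SE 0.19, adjusted p = 0.0905, limma), and without Bai1tm2b/tm2b replicate 1 it was 0.74 (adjusted p = 0.0107, limma) and called, while the other 7 fits with a library left out did not call it and the adjusted p over these 8 fits ranged from 0.0107 to 0.211. Neuron markers summed to 1972 to 3183 TPM in Bai1tm2b/+ and 2560 to 3474 TPM in Bai1tm2b/tm2b libraries, and 9 of the 11 tested were positive.

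Grik5 stood at 29, 26, 22 and 23 in Bai1tm2b/+ and 29, 33, 31 and 36 in Bai1tm2b/tm2b libraries, with a log2 fold change of 0.24 (SE 0.07, adjusted p = 0.0588, limma) and groups that met at 29. Grid1 stood at 6, 6, 5 and 5 and at 6, 7, 7 and 8 (0.20, adjusted p = 0.166, limma), and Grik4 at 5, 6, 5 and 4 and at 5, 6, 6 and 8 (0.17, adjusted p = 0.381, limma). All 4 tested genes were higher in the mean of Bai1tm2b/tm2b libraries, but the groups of each overlapped or met, as those of all 9 genes did, against 14.8% of all genes without overlap. The other 5 genes were described by their values, since a step of 1 TPM is large at their level. Grin2d stood at 2 to 4 in Bai1tm2b/+ and at 4 in every Bai1tm2b/tm2b library, Grin3a at 3 or 4 and at 4 or 5, Grik3 at 2 or 3 and at 2 to 4, Grik2 at 3 or 4 in both, and Grin2c was listed at 0 in all but 2 Bai1tm2b/tm2b libraries, where it was listed at 1. Exact permutation tests (2-sided) on the 9 genes gave unadjusted p values from 0.0571 (Grik5) to 1 (Grik2), where 4 libraries against 4 can give no less than 0.0286.

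**Figure D5:**
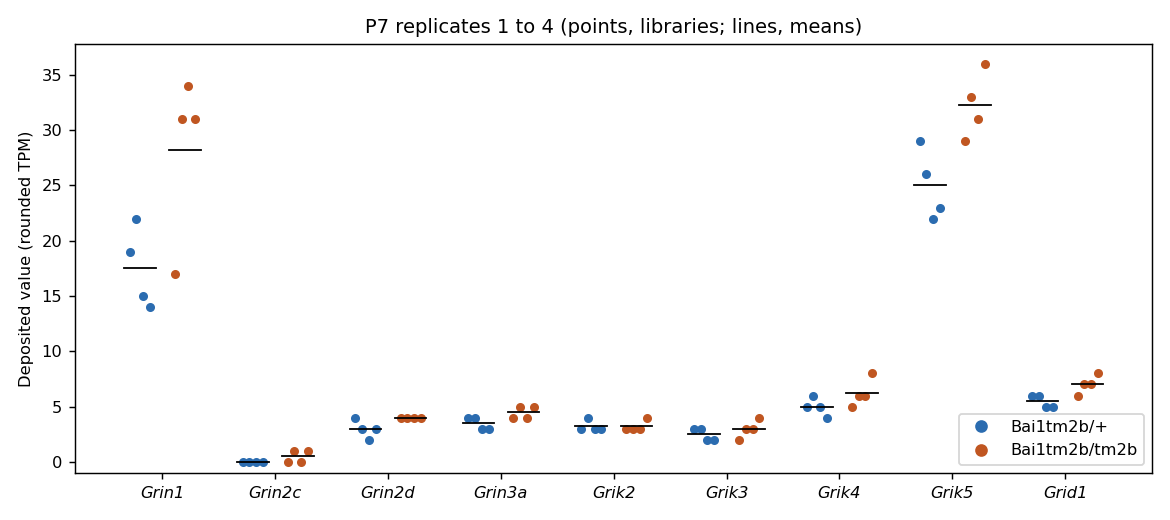
Deposited whole numbers, taken as rounded TPM (vertical axis), of the 9 receptor genes in P7 replicates 1 to 4, with a point for each library and a line at the mean of 4 libraries. Grin1 in Bai1tm2b/tm2b replicate 1 (17) lies among the Bai1tm2b/+ libraries (14 to 22) while the other 3 lie at 31 to 34, and Grin2c lies at 0 or 1.

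Whether the genotype difference itself changed with age was tested in the 12 libraries in counts. None of the 9 genes was called, against 0.0306% of all genes (5 of 16314, edgeR). The largest difference among the 9 was that of Grin2d, which was at 0.13 at P7 and -0.37 at P22 in the separate fits of each age. In the joint fit of the 12 libraries its genotype difference changed by -0.48 (SE 0.18, unadjusted p = 0.0220, a level of p under 0.05 that 10.2% of all genes reached, adjusted p = 0.384, edgeR), with an interval from -0.87 to -0.08. The unadjusted p was above 0.05 for the other 8 genes, from 0.125 (Grik5) upwards, and Grin1 was at 0.06 with a wide interval from -0.76 to 0.87.

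The other glutamate receptor genes were read beside the 9. Of 4 further NMDA and kainate genes, 1 was called between P7 and P22, Grik1 (GluK1), which fell by 2.06 on the log2 scale, from 7.64 to 11.9 CPM at P7 to 1.63 to 2.92 CPM at P22. Grin3b, at 0.754 to 1.48 CPM over all 12 libraries, and Grin2b were not called, and Grin2a is described above. Among the AMPA genes, Gria3 (1.69), Gria4 (1.37) and Gria2 (0.76) rose and Gria1 (-0.65) fell. In the contrast within Bai1tm2b/tm2b neither Gria2 (0.27) nor Gria1 (-0.49) was called. Of the 7 metabotropic genes tested, 2 rose (Grm8 at 3.15 and Grm7 at 2.19) and 4 fell, among them Grm5 (-4.58) and Grm4 (-1.76). The median log2 fold change was -1.46 for the 4 further NMDA and kainate genes, 1.06 for the AMPA genes and -1.42 for the metabotropic genes, against -0.05 for all genes tested. Of all genes tested, 25.9% were called higher and 28.7% lower. Scaled to the neuron markers, Gria2 (-2.26), Gria3 (-1.32), Gria4 (-1.59) and Grm7 (-0.79) had the opposite direction and Grm8 (0.23) was no longer called. Between genotypes at P22, scaled by TMM, none of these genes was called. Gria2 (-0.30, adjusted p = 0.0329), Gria3 (-0.36, adjusted p = 0.0167) and Gria4 (-0.26, adjusted p = 0.0352, edgeR) passed the adjusted p value but not the size limit, without overlap between the genotypes. Of all genes, 7.28% passed that value in the lower direction and 33.7% had no overlap. Gria2, Gria3 and Gria4 lay at 0.12, 0.06 and 0.16 when scaled to the neuron markers. On the scale of the neuron markers Gria1 (1.04, adjusted p = 0.00219) and Grm3 (1.505, adjusted p = 0.00519, edgeR) were called higher in Bai1tm2b/tm2b, as were 4765 of the 15443 genes tested.

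Of 16 genes for partners of the receptors, 5 rose and 8 fell at P22 (median -0.48), against 25.9% and 28.7% of all genes tested. Neto1 (-3.06) and Neto2 (-2.24), the auxiliary subunits of kainate receptors, both fell, while Grik4 rose and Grik5 did not pass. Cbln2, a cerebellin that GluD1 binds, fell by 6.75 on the log2 scale and Nrxn3, a neurexin, by 2.55. Cbln2 stood at 2.02 to 2.78 CPM in Bai1tm2b/+ and 3.29 to 3.73 CPM in Bai1tm2b/tm2b libraries at P7. At P22 it had 0 to 2 and 0 to 3 counts per library, so the size of its fall rests on values near 0. The call of Cbln2 ended in 5 of 18 alternatives, each through the limit on the SE: with DESeq2 (SE 0.68), scaled to the neuron markers (0.52), in the contrasts within Bai1tm2b/+ (0.68) or Bai1tm2b/tm2b (0.63), and without P22 Bai1tm2b/+ replicate 2 (-8.23, SE 0.55). Dlg2, which encodes the scaffold PSD-93, rose by 2.41 on that scale and was at -0.58 when scaled to the neuron markers. Dao, whose enzyme degrades D-serine, rose from at most 0.203 CPM in the P7 libraries to 1.57 to 4.04 CPM at P22. Between genotypes at P22, Nrxn3 was called lower in Bai1tm2b/tm2b (-0.87, SE 0.19, adjusted p = 0.0162, edgeR), at 3.99 to 5.43 CPM in Bai1tm2b/+ and 2.23 to 2.82 CPM in Bai1tm2b/tm2b libraries. With a library left out its adjusted p ranged from 0.0108 to 0.0783 (edgeR), and the call ended without Bai1tm2b/+ replicate 1 (0.0783) or 3 (0.0559), without Bai1tm2b/tm2b replicate 2 (0.0609), and when scaled to the neuron markers (-0.46). Dao was called higher (0.89, SE 0.23, adjusted p = 0.0332, edgeR), at 1.57 to 2.20 and 2.68 to 4.04 CPM, and its call held without Bai1tm2b/tm2b replicate 3 (0.0227) and ended without any 1 of the other 5 libraries (adjusted p = 0.0646 to 0.110, edgeR). With a replicate block it was at 0.88 (adjusted p = 0.0564, edgeR) and not called. The P7 libraries in counts gave no call in this list, and those in rounded TPM gave 1, Nrxn2 (0.51, adjusted p = 0.0453, limma), a call that ended in 6 of the 8 fits with a library left out (0.0113 to 0.124).

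Finally, for each receptor gene the genes with the most similar course over the 12 libraries were sought, by the root mean square difference of log2 CPM after centring each gene on its own mean. For Grin1, Stac2 was among the 2 closest (difference 0.0850). Grik4 was closest to Shb (0.0902) and Calm3, a calmodulin gene (0.0903), and Grin3a to Dok4 (0.0935) and Il13ra1 (0.114). Grik5 had the closest match of all, Edc4 (0.0271), a gene of mRNA decapping, followed by Hnrnpa3 (0.0496), both nearly level between the ages. Grid1 was closest to Nptx2 (0.140) and Armcx6 (0.155), and Grin2c to Srrm3 (0.135) and Btbd9 (0.199), the loosest pair. Grin2d was closest to Mef2d (0.121) and 5330426P16Rik (0.124), Grik2 to Acvr2a (0.136) and Slitrk5 (0.143), and Grik3 to Lzts1 (0.124) and Fam49b (0.160). The 12 libraries fall into 2 ages, so the measure is mostly set by the difference between the ages.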

How the data were processed

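The authors prepared poly A libraries from pooled cochlear tissue, ran the nf-core RNA pipeline on mm10 and estimated counts with Salmon (STAR and DESeq2 are further tools in the submitters' notes). Versions, annotation and strand setting are not given in the sources used here. The deposited values for P22 and for P7 replicates 5 to 7 are estimated counts (expected counts) per gene, not normalized. The deposited values for P7 replicates 1 to 4 are a score taken as TPM rounded to whole numbers. The labels give P7 batches of 3 and 4 replicates but do not name them per sample. Nothing states that pools were from separate litters, so p values measure the spread between these pools.

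Counts were rounded, filtered with filterByExpr, scaled by TMM and tested in R 4.3.3 with edgeR 4.0.16 (quasi-likelihood test). Rounded TPM values were scaled by TMM and tested as log2(TPM + 1) with limma 3.58.1 (mean-variance trend) where the mean reached 5 TPM. P values were adjusted over all genes tested (Benjamini-Hochberg). Each fit was tested on simulated data. Gene lengths and overlaps came from GENCODE vM21 (mm10), as joined exons or the longest coding transcript.

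All 9 receptor genes were named. From the lists of other receptor genes and partners, called genes were named up to the 5 largest changes, and for each receptor gene the 2 closest in course. A few genes of these lists are not reported here. Members and lists were chosen with earlier results of these data known. Alternatives were other size factors, no low-count filter, DESeq2 1.42.0, scaling to neuron markers, a replicate block, a pseudocount of 0.5, a mean of 1 TPM, TPM without TMM, contrasts within each genotype in the fit of 12 libraries, and each library left out.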

Additional observations from a re-analysis of the deposited data

Results flagged for a closer look

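In the P7 libraries in rounded TPM, Grik2 stood at 3, 4, 3 and 3 in Bai1tm2b/+ and at 3, 3, 3 and 4 in Bai1tm2b/tm2b libraries. In each genotype 1 library lay apart from the other 3, with a gap that equals the whole range of the group (a ratio of 1, above the limit of Dixon's test for 4 samples), in replicate 2 of Bai1tm2b/+ and replicate 4 of Bai1tm2b/tm2b. The gap is a single step of the rounding, and with 3 equal values the ratio is always 1, so the usual rate of about 1 in 20 groups by chance, which holds for continuous values, does not apply.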

How the results depend on the processing

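The 6 calls between the ages were made under every other setting but the scaling to neuron markers, which gave 8 calls, ended that of Grin2c (0.24) and reversed Grik4 (-1.22) and Grik3 (-2.78). Over all 16314 genes that scaling called 14928 lower and 119 higher. At P22 that scaling gave 2 calls among the 9, both higher, and called 4765 of all 15443 genes higher and 33 lower. It reversed Grin1 (0.21), Grin2d (0.046), Grik2 (0.32), Grik3 (0.38), Grik4 (0.17), Grik5 (0.41) and Grid1 (0.22) at P22, and at P7 in counts it reversed Grin1 (0.17), Grik2 (0.31) and Grik4 (0.20). In the comparison of genotype effects between the ages it took Grik2 to 0.0033, and other size factors took Grin3a to -0.00039, for which the cause was not tested. The shifts under the scaling to neuron markers follow, by its construction, from the lower sums of these markers at P7 and in Bai1tm2b/tm2b libraries. With the longest transcripts, 4 of 9 ranks at P7 were the same. With a library left out, the called genes in rounded TPM numbered 0 to 1, and directions turned within -0.028 to 0.22 for Grin3a, -0.16 to 0.10 for Grik3 and -0.015 to 0.016 for Grik5 at P22, within -0.50 to 0.17 for Grin1, -0.047 to 0.24 for Grin2d, -0.21 to 0.12 for Grik2, -0.27 to 0.038 for Grik4 and -0.15 to 0.21 for Grid1 at P7 in counts, and within -0.36 to 0.32 for Grin1, -0.0090 to 0.17 for Grin2c, -0.11 to 0.14 for Grin3a, -0.22 to 0.13 for Grik2 and -0.28 to 0.053 for Grik4 between the genotype effects of both ages. None of those that turned was called.

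Replicate numbers did not pair the samples: deviations of same-numbered libraries correlated at -0.09 to 0.02 at P22, -0.26 to 0.08 at P7 in counts and -0.35 to 0.01 in rounded TPM. With a replicate block 0 of the 9 genes were called in each of the 3 genotype comparisons, Grin2d at P22 was at -0.37 (adjusted p = 0.0731, edgeR), and calls over all genes in rounded TPM went from 89 (69 higher, 20 lower) to 0 (limma). They were 283 higher and 9 lower without TMM, and 134 without Bai1tm2b/+ replicate 1, 330 without Bai1tm2b/tm2b replicate 1 and 0 without any other library. The smallest intervals belong to Grik5, with 3062 to 5824 counts per library, and Grin2c at P7 rests on 41 to 81 counts. The SE of the genotype difference at P7 was 0.22 for Grin2c and 0.33 for Grin1, which has more counts, so the spread between pools also limits what was detectable.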
